A study of Mus musculus with 7 samples.

Results

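The 9 genes described here mark megakaryocytes, platelets and the stem cells biased toward them: Vwf, Gp1bb, Gp9, Gp6, Itga2b, Selp, Pf4, Ppbp and Clu. They were taken by gene symbol from the table of normalized counts, in which each symbol was found in 1 row, so that the group holds 9 of 48440 genes. Of these, 8 reached a mean normalized count of 10 over the 7 libraries and were tested among 16251 genes, and Gp6 did not. RNA was sequenced from LSK cells, the bone marrow (BM) fraction that carries Sca1 and cKit without lineage markers where hematopoietic stem cells (HSCs) and early progenitors are found. All recipients were C57BL/6 mice that had received 9.5 Gy and then unfractionated BM, and the LSK cells were sorted at day 77. The 4 wild-type libraries came from recipients of wild-type BM, and the 3 libraries labelled PROSER1 KO (KO-labelled libraries) from recipients of BM of mice with a constitutive endonuclease-mediated knockout, which is therefore present in all donor cells and was not introduced in LSK cells alone. Recipient cells are not described as removed by a donor marker in this sort, the age and number of mice per library are not given in the sources used here, and the antibodies listed for lineage exclusion include none against a megakaryocyte surface protein. The question was whether these genes differed between the groups and how they varied among libraries.

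Megakaryocytes are the large marrow cells that shed platelets. Platelets carry receptors for the vessel wall, and they store adhesive proteins and chemokines in granules. A fraction of HSCs transcribes Vwf and other genes of this program, is known to favor the platelet lineage and becomes more frequent with age, and CD41, the product of Itga2b, and P-selectin, the product of Selp, are found on HSCs as well as on platelets.

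In the KO-labelled libraries, 8 of the 8 tested genes had a higher mean log2 value than in wild-type, by 0.06 for Gp9 to 0.66 for Vwf, but none passed the test. Itga2b, at 5205 ± 455 (SD, n = 4) in the wild-type libraries and 6177 ± 697 (SD, n = 3) in the KO-labelled libraries, had the lowest p, and Vwf had the largest log2 difference, with means of 2211 ± 783 (SD, n = 4) and 3357 ± 861 (SD, n = 3). The 2 groups overlapped for each of the 8 genes. For 7 of them the highest value of all came from 1 library, KO-labelled replicate 1, and without this library 5 of the 8 differences were above 0 (50.1% of all genes tested).

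The libraries held 33143619 to 45140743 read pairs on genes. At this depth 3 read pairs, the limit that a count of 0 allows, stood for a normalized count of 2.54 to 3.48, and this limit covers counting error only. A normalized count is the number of read pairs divided by 1 size factor per library. Proser1 was not lower in the KO-labelled libraries, where its mean was 2387 ± 67.5 (SD, n = 3) against 2088 ± 55.5 (SD, n = 4), with no overlap between the groups (log2 fold change 0.19, adjusted p = 0.204 from limma), so that the gene total does not check the labels and each direction given here rests on them. LSK identity genes were present at summed normalized counts of 112923 to 127236 in all 7 libraries. In such bulk RNA, more cells of a kind and more RNA per cell of that kind cannot be told apart.

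Promoter sequences are given for 5 of the genes because megakaryocyte genes are known to be bound by GATA, ETS and RUNX factors, and these 5 held 1 of the motifs searched. Of the 9 genes, 7 had an entry among the RefSeq promoters (GRCm38.p6), and Vwf and Clu had none. For GATA factors the letters AGATAA were searched, for ETS factors AGGAAG and for RUNX factors TGTGGT, each on both strands of the 150 bases before the RefSeq start, and no match overlapped another. AGGAAG was found in 4 of 7 promoters and in 19.7% of 32851 promoters of the same length. AGATAA was found in 1 of 7, that of Gp6, and in 5.65% of all, and TGTGGT in 0 of 7 and 8.40% of all. Each sequence is written 5′ to 3′ on the strand of its gene and ends at the base before the start, with the motif in capitals (CTTCCT is AGGAAG on the other strand). A match describes the letters only.
Itga2b: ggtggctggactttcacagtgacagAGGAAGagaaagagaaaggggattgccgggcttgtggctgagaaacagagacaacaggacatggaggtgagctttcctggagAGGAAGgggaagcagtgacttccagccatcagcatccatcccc
Pf4: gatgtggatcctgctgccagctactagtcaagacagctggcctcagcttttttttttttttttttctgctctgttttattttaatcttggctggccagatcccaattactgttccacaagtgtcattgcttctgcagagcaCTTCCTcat
Gp9: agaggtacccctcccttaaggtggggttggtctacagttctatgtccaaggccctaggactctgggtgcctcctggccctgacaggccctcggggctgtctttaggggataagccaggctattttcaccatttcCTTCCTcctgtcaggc
Selp: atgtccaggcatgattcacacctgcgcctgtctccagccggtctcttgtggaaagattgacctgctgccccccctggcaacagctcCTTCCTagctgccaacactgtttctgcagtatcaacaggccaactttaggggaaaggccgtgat
Gp6: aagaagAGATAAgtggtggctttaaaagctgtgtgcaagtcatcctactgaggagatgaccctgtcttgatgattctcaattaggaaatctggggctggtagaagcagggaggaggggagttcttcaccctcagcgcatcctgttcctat
The Itga2b stretch (chr11:102469884-102470033, reverse strand) holds AGGAAG at 125 to 120 and at 43 to 38 bases before the start, both on the strand of the gene, and the part farthest from the start lies in the first exon of a non-coding Itga2b transcript of GENCODE M21. In Pf4 (chr5:90772285-90772434, forward strand), Gp9 (chr6:87777920-87778069, forward strand) and Selp (chr1:164115114-164115263, forward strand) the ETS letters lay on the other strand, at 9 to 4, 16 to 11 and 64 to 59 bases before the start. In Gp6 (chr7:4397745-4397894, reverse strand) AGATAA lay at 144 to 139 bases before the start on the strand of the gene. Among the 4 genes with the ETS letters, the log2 differences between the groups were 0.24 for Itga2b, 0.47 for Pf4, 0.06 for Gp9 and 0.13 for Selp.

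Vwf (ENSMUSG00000001930, chr6:125546774-125686679, forward strand, GRCm38) encodes von Willebrand factor, the large adhesive protein that tethers platelets to the vessel wall and is also made by endothelial cells. Its normalized counts were 2914, 2551, 1103 and 2274 across wild-type replicates 1 to 4, and 4231, 2509 and 3331 across KO-labelled replicates 1 to 3. Wild-type replicate 3 was far below the other 6 libraries, 2 of the 3 KO-labelled libraries were above all wild-type libraries, and the third lay among them. The log2 fold change on log2(normalized count + 1) was 0.66 with SE 0.30 (95% interval -0.03 to 1.34), with an adjusted p of 0.528 from limma over all genes tested. A two-sided exact permutation test of the difference gave p = 0.2 (35 arrangements, smallest possible p 0.0286). Without wild-type replicate 3 the log2 fold change was 0.35 (adjusted p = 0.539).

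**Figure D1:**
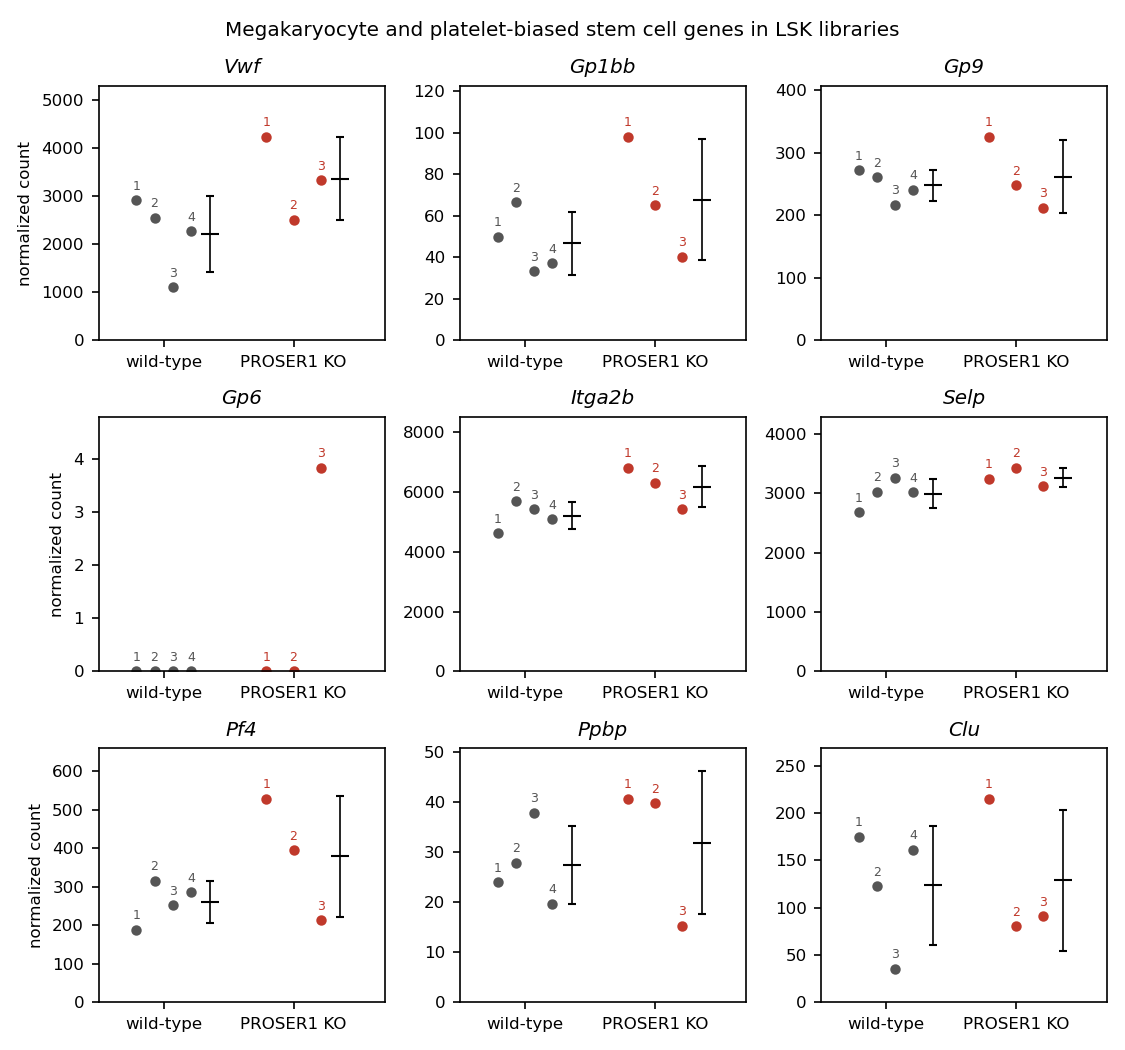
Normalized counts (y axis, linear from 0, a separate scale for each gene) of the 9 genes in the 4 wild-type libraries (grey) and the 3 KO-labelled libraries (red). Points are libraries with their replicate numbers, and the dash with whiskers is the mean with the SD (not drawn for Gp6, which was at 0 in 6 of 7 libraries). KO-labelled replicate 1 is the highest point for Vwf, Gp1bb, Gp9, Itga2b, Pf4, Ppbp and Clu.

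Gp1bb, Gp9 and Gp6 encode platelet receptors. Gp1bb and Gp9 are subunits of the receptor complex that binds von Willebrand factor, and Gp6 is a collagen receptor. Gp9 (ENSMUSG00000030054, chr6:87778072-87779768, forward strand) had normalized counts of 272, 261, 217 and 241 across wild-type replicates 1 to 4, and 325, 248 and 212 across KO-labelled replicates 1 to 3. Its highest and its lowest value both came from KO-labelled libraries, and the log2 fold change was 0.06 with SE 0.16 (95% interval -0.30 to 0.43, adjusted p = 0.939 from limma). The upper end of this interval is a fold change of 1.34.

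Gp1bb (ENSMUSG00000050761, chr16:18620317-18622403, reverse strand) had normalized counts of 50, 66.7, 33.3 and 37.1 across wild-type replicates 1 to 4, and 98.1, 65.2 and 40.3 across KO-labelled replicates 1 to 3. Only replicate 1 of the latter lay above all wild-type libraries, and the log2 fold change was 0.49 with SE 0.36 (95% interval -0.31 to 1.29, adjusted p = 0.699 from limma). Gp1bb shares exons on the same strand with Sept5, whose mean normalized count was 76.5, and with Gm49601, for which no value was found. How reads over shared exons were counted is not given in the sources used here. Such reads may have been left out or given to 1 of the genes, so that the level of Gp1bb is uncertain. Gp6 (ENSMUSG00000078810, chr7:4363965-4397744, reverse strand) had no read pair in 6 libraries, and 4 read pairs, a normalized count of 3.84, in KO-labelled replicate 3. No difference could be detected for Gp6 at this depth. Of the partner subunits, Gp1ba had 185 ± 25.8 (SD, n = 4) in the wild-type libraries and 181 ± 24.8 (SD, n = 3) in the KO-labelled libraries, and Gp5 had 389 ± 58.5 (SD, n = 4) and 560 ± 105 (SD, n = 3). The values of Gp5 did not overlap between the groups (log2 fold change 0.52, adjusted p = 0.325 from limma), whereas those of Gp1ba did (-0.03, adjusted p = 0.974). These partners of the receptor complex were named after their values had been seen.

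Itga2b (ENSMUSG00000034664, chr11:102453297-102470122, reverse strand) encodes the integrin alpha chain CD41, which with beta 3 forms the fibrinogen receptor of platelets. Its normalized counts were 4627, 5684, 5418 and 5090 across wild-type replicates 1 to 4, and 6803, 6302 and 5425 across KO-labelled replicates 1 to 3. Replicates 1 and 2 of the latter lay above all wild-type libraries, and replicate 3 lay between wild-type replicates 2 and 3. The log2 fold change was 0.24 with SE 0.089 (95% interval 0.04 to 0.44), a fold change of 1.18, with an unadjusted p of 0.0216 and an adjusted p of 0.404 from limma and an exact permutation p of 0.114. The upper end of the interval, a fold change of 1.36, was below the minimum of 1.5-fold that a call required. Itgb3, which encodes the beta 3 chain and was named as the partner after its values had been seen, had 1646 ± 172 (SD, n = 4) and 1960 ± 305 (SD, n = 3), with a log2 fold change of 0.25 (adjusted p = 0.522 from limma).

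Selp (ENSMUSG00000026580, chr1:164115264-164150026, forward strand) encodes P-selectin, an adhesion receptor that platelets and endothelial cells keep in granules until they are activated. Its normalized counts were 2677, 3024, 3263 and 3014 across wild-type replicates 1 to 4, and 3241, 3426 and 3114 across KO-labelled replicates 1 to 3. KO-labelled replicate 2 was highest and wild-type replicate 1 lowest, and the others lay close together. The log2 fold change was 0.13 with SE 0.070 (95% interval -0.03 to 0.28, adjusted p = 0.601 from limma), with an upper end of the interval at 1.22-fold. Antisense transcripts over exons of Selp had mean normalized counts of 1.90 (Gm16587) and 3.74 (Gm16548), and reads of the 2 strands can be told apart only if the counting used strand, which is not given in the sources used here.

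Pf4 and Ppbp are neighboring chemokine genes whose products are stored in platelet granules. Pf4 (platelet factor 4, ENSMUSG00000029373, chr5:90772435-90773383, forward strand) had normalized counts of 188, 316, 252 and 286 across wild-type replicates 1 to 4, and 528, 394 and 213 across KO-labelled replicates 1 to 3. Replicates 1 and 2 of the latter lay above all wild-type libraries and replicate 3 was lower than all but 1 of them. The log2 fold change was 0.47 with SE 0.29 (95% interval -0.18 to 1.12, adjusted p = 0.643 from limma). Ppbp (pro-platelet basic protein, ENSMUSG00000029372, chr5:90768518-90770063, forward strand) had normalized counts of 24.0, 27.9, 37.9 and 19.7 across wild-type replicates 1 to 4, and 40.7, 39.8 and 15.4 across KO-labelled replicates 1 to 3. Both genes were therefore high in replicates 1 and 2 and low in replicate 3 of the KO-labelled libraries. The log2 fold change of Ppbp was 0.13 with SE 0.41 (95% interval -0.79 to 1.06, adjusted p = 0.951 from limma).

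Clu (ENSMUSG00000022037, chr14:65968483-65981547, forward strand) encodes clusterin, a secreted chaperone that platelets store and that marks a platelet-biased fraction of HSCs. Its normalized counts were 175, 123, 35.6 and 161 across wild-type replicates 1 to 4, and 215, 80.4 and 91.2 across KO-labelled replicates 1 to 3. Wild-type replicate 3 was lowest, as for Vwf, and the highest value was 6.03 times the lowest. The log2 fold change was 0.14 with SE 0.55 (95% interval -1.09 to 1.37, adjusted p = 0.962 from limma), and it was -0.37 without wild-type replicate 3 and -0.30 without KO-labelled replicate 1.

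**Figure D2:**
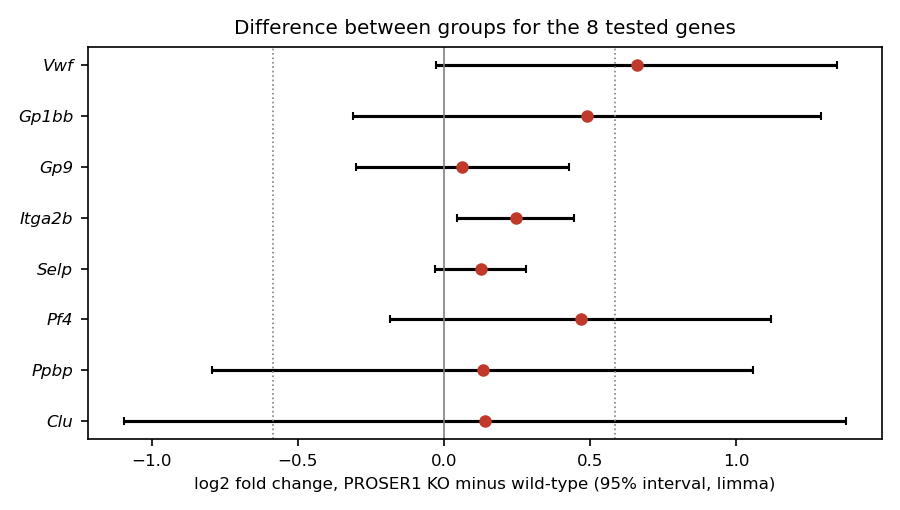
Difference between the groups for the 8 tested genes. The x axis is the log2 fold change (KO-labelled libraries minus wild-type, on log2(normalized count + 1)), points are limma estimates, whiskers are 95% intervals, and dotted lines mark a fold change of 1.5 in either direction. All 8 points are above 0, from 0.06 for Gp9 to 0.66 for Vwf, and the interval of Itga2b alone does not include 0.

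With limma, 0 of the 8 tested genes were differentially expressed (adjusted p under 0.05 and fold change above 1.5), against 0.258% of all genes tested (0.123% with the higher value in the KO-labelled libraries). At an unadjusted p under 0.05 there was 1 of 8, Itga2b, against 9.73% of all genes. edgeR on the recovered read pairs called 0 of 8 (0.246% of all genes tested). DESeq2 called 0 of 8, against 0.873% of the 18903 genes to which it gave an adjusted p, a larger set than for limma and edgeR. Groups that did not overlap were found for 0 of 8 (10% of all genes, and 5.17% with the KO-labelled libraries above). The 8 log2 fold changes above 0 compare with 50.6% of all genes above 0, and their median was 0.19 against 0.00 over all genes tested. The 8 values come from the same 7 libraries and are not independent of each other. The summed normalized count of the 9 genes, which is mostly Itga2b, Selp and Vwf, was 10361 to 12052 in the wild-type libraries and 12446 to 15482 in the KO-labelled libraries.

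Levels of different genes were compared as FPKM, the fragments (read pairs) per kb of exon at equal library depth. In wild-type, the FPKM level was highest for Itga2b (24.4 ± 2.58, SD, n = 4) and next for Selp (17.3 ± 1.67), Pf4 (9.23 ± 1.95) and Gp9 (7.18 ± 0.690). Vwf followed (3.50 ± 1.23), with the largest exon length of the 9 genes (16064 bases). This length joins all annotated exons of a gene, so that the level is understated, and the order may differ, where the transcripts made are shorter. Clu (0.911 ± 0.452), Ppbp (0.650 ± 0.201) and Gp1bb (0.574 ± 0.191) were below 1, and Gp6 was at 0. Among neighbors in this order, the ranges of Pf4 and Gp9 and those of Clu, Ppbp and Gp1bb overlapped within 1 SD. The place of Gp1bb is uncertain, because it shares exons with other genes. In the KO-labelled libraries the FPKM level was 29.3 ± 3.50 (SD, n = 3) for Itga2b, 19.1 ± 1.16 for Selp, 13.6 ± 5.71 for Pf4, 7.68 ± 1.72 for Gp9 and 5.39 ± 1.36 for Vwf. Thus CD41 and P-selectin transcripts were ample in these LSK cells, and Itga2b had a higher level than 87.8% of the genes tested, whereas the granule chemokine Ppbp had a higher level than 19.9%.

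The spread among libraries of a group was large for several of these genes. The SD within groups of log2(normalized count + 1) was 0.95 for Clu, 0.54 for Vwf and 0.49 for Pf4, where counting error alone would give 0.13, 0.027 and 0.081. The spread of Vwf was larger than that of 98.3% of tested genes of like level (mean within a factor of 2), and that of Clu, Pf4 and Itga2b larger than that of 97.4%, 94.5% and 92.6%. Selp had an SD of 0.10, larger than 74.1% of genes of like level, and Gp9 one of 0.23, larger than 61.6%. Ppbp (SD 0.57) and Gp1bb (SD 0.53) are low, and counting error alone would give SDs of 0.26 and 0.19.

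The highest values were gathered in 1 library. Of the 8 tested genes, 7 were highest in KO-labelled replicate 1, in which 15.5% of all tested genes had their highest value, and Selp was highest in replicate 2 of the same group. The lowest value came from wild-type replicate 1 for Itga2b, Selp and Pf4, from wild-type replicate 3 for Vwf, Gp1bb and Clu, and from KO-labelled replicate 3 for Gp9 and Ppbp. Without KO-labelled replicate 1, the log2 fold changes of Gp9, Ppbp and Clu were -0.11, -0.10 and -0.30. Without KO-labelled replicate 3, the groups did not overlap for 3 of the 8 genes, Itga2b, Pf4 and Ppbp, against 17.9% of all genes tested in the same 6 libraries. This library was the lowest of its group for these 3 genes, and the setting was chosen after seeing the data. Leaving out any other library gave 0 or 1 of the 8 genes, against 13.4% to 19.4% of all genes tested.

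**Figure D3:**
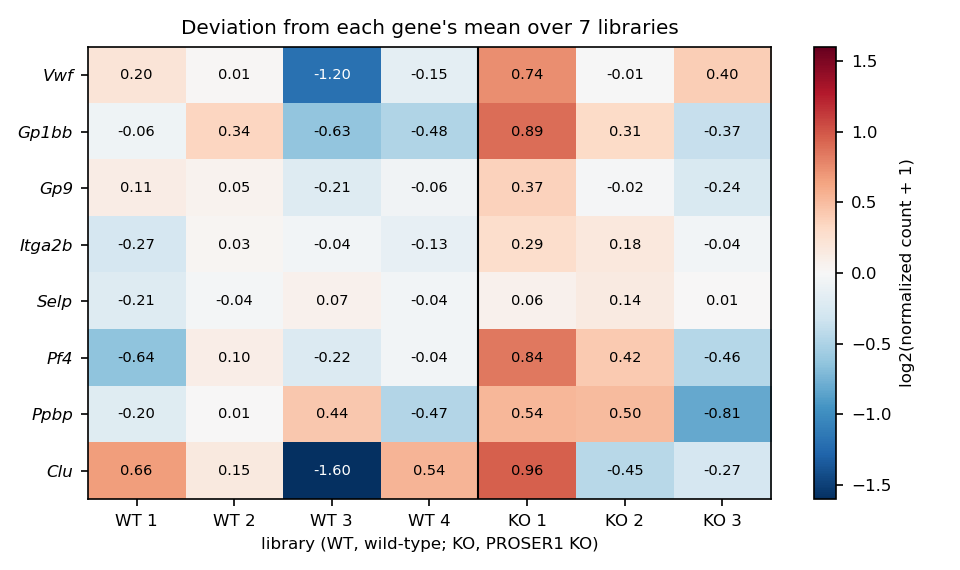
Deviation of log2(normalized count + 1) from the mean of each gene over the 7 libraries, for the 8 tested genes (rows) in 4 wild-type and 3 PROSER1 KO libraries by label (columns). Red is above and blue below the mean. The column of PROSER1 KO replicate 1 is above 0 in all 8 rows, and the deepest blue fields are Clu (-1.60) and Vwf (-1.20) in wild-type replicate 3.

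Pairs of genes were compared over the 7 libraries on log2 values (28 pairs, exact permutation over all orders), and no pair had an adjusted p under 0.05. The closest pair was Itga2b and Pf4, with Pearson's r = 0.92 (exact permutation p = 0.00556, adjusted p = 0.156) and Spearman's rho = 0.86 (exact permutation p = 0.0238, adjusted p = 0.354). Without wild-type replicate 1 and KO-labelled replicate 1, the libraries farthest from the median of Itga2b, r was 0.72, and on deviations from the group means it was 0.93. Gp1bb and Gp9, subunits of the same receptor, had r = 0.86 (exact permutation p = 0.0133, adjusted p = 0.186) and rho = 0.79 (exact permutation p = 0.0480, adjusted p = 0.354), with r = 0.55 without 2 libraries. Vwf and Clu had r = 0.82 (exact permutation p = 0.0351, adjusted p = 0.240) and rho = 0.64 (exact permutation p = 0.139, adjusted p = 0.354). Without wild-type replicate 3 and KO-labelled replicate 1, the libraries farthest from the median of Vwf, r was -0.25, without wild-type replicate 3 alone it was 0.38, and on deviations from the group means it was 0.95. Vwf and Itga2b had r = 0.31 (exact permutation p = 0.511, adjusted p = 0.681) and rho = 0.39 (exact permutation p = 0.396, adjusted p = 0.583), so that a shared course of Vwf and Itga2b over the libraries was not detectable with 7 libraries.

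Among 16113 genes compared on deviations from the group means over the 7 libraries, the 5 with the highest Pearson correlation with the mean of the 8 genes were Pdcd4, Cdkl3, Kcnrg, Gm15596 and Lmo1, with r of 0.99, 0.99, 0.99, 0.98 and 0.98. The 5 most like Vwf were Nomo1, Lysmd3, Trbj2-1, Tnfrsf25 and Rps19-ps4, with r of 1.00, 0.99, 0.99, 0.99 and 0.98. None of these 10 is a gene of the platelet lists, but those lists hold a very small part of the 16113 genes compared, so that this says little. Their values share libraries and depth with those of the 9 genes, and the order is a description of these 7 libraries.

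Cells other than stem cells also express several of the 9 genes. Vwf and Selp are endothelial genes too. The summed endothelial list was 7344 to 8240 in the wild-type libraries and 7308 to 9755 in the KO-labelled libraries. Of its 10 genes 9 were tested, and 0 were differentially expressed (0.258% of all genes). A log2 fold change above 0 was found for 7 of the 9 (50.6% of all genes), with a median of 0.36. Groups did not overlap for 1 of the 9 (10% of all genes), Emcn, which was named after its values had been seen. Emcn had 764 ± 55.3 (SD, n = 4) and 983 ± 113 (SD, n = 3), with a log2 fold change of 0.36 (adjusted p = 0.233 from limma). The largest member of the list was Tie1 (5470 and 5908), which HSCs also express. Cdh5, the cadherin of endothelial junctions, ranged from 33.4 to 231 in the wild-type libraries and from 106 to 258 in the KO-labelled libraries, and the part of endothelial cells in the values of Vwf and Selp was not tested. The erythroid list, led by Car1, was at 718 to 1691 in the wild-type libraries and 1211 to 1808 in the KO-labelled libraries, with its highest sum in replicate 1 of the latter. The stromal list, of which Pdgfrb is the most abundant, was at 2077 to 3177 and 2853 to 3348, with 4 of its 8 genes tested.

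Transcripts of plasma cells and B-lineage cells varied between libraries of both groups. The plasma cell list, led by Ighm, summed to 1379890 in wild-type replicate 3 and to 2045000 to 3226500 in the other wild-type libraries, and to 1300810 in KO-labelled replicate 2 against 1875950 and 1909010 in replicates 1 and 3. The B-lineage list, led by Cd79b, was lowest in the same 2 libraries, at 3421 and 3502. Vwf and Clu were also lowest in these 2 libraries within their groups, a match that was noticed after the values had been seen, and the part of these cells in the values of Vwf and Clu was not tested. The granulocyte and monocyte list (led by Mpo) was at 24802 to 27625 in the wild-type libraries and 22213 to 27355 in the KO-labelled libraries. The macrophage list (led by Mrc1) was at 498 to 954 and 566 to 1033, the mast cell and basophil list (led by Gata2, also an LSK gene) at 7956 to 8820 and 7595 to 8682, and the T and NK cell list (mostly Nkg7 and Il7r) at 4290 to 5956 and 4025 to 6582. None of these lists held a differentially expressed gene, against 0.258% of all genes tested.

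KO-labelled replicate 1, which held 7 of the 8 highest values, also stood apart for transcripts of T cells and B-lineage cells, in genes named after their values had been seen. Cd3g, a chain of the T cell receptor complex, had a normalized count of 697 in this library and 20.9 to 52.9 in the other 6. Cd3e was at 197 against 5.75 to 24.0, and Cd3d at 106 against 1.80 to 21.1. The B-lineage transcription factors Pax5 (303 against 55.6 to 169.9) and Ebf1 (494 against 126 to 258) were highest there as well. Trac, which was highest at 26.0 in wild-type replicate 1, and Cd8a, at 33.4 against 7.62 to 31.7, did not stand apart in this way. The part of such cells in the values of the 8 genes in this library was not tested.

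Other genes of the megakaryocyte and platelet program were compared through 5 lists, without the 9 genes. Of 15 further surface receptors, 14 were tested, 1 was differentially expressed and lower in the KO-labelled libraries (0.258% of all genes called, 0.135% lower), 10 had a log2 fold change above 0 (50.6% of all genes), and the median was 0.17. The lower gene was Fcer1g, the signaling chain with which Gp6 pairs and which mast cells and myeloid cells also express, with normalized counts of 608, 455, 539 and 574 across wild-type replicates 1 to 4, and 336, 251 and 269 across KO-labelled replicates 1 to 3. The groups did not overlap, and the log2 fold change was -0.93 with SE 0.14 (adjusted p = 0.0277 from limma). Without any 1 of wild-type replicates 1, 3 and 4 or of KO-labelled replicates 2 and 3, the adjusted p was 0.0639 to 0.145. Of the mast cell and basophil genes, which were named after their values had been seen, Mcpt8, a basophil protease gene, had 211 ± 35.5 (SD, n = 4) and 121 ± 38.9 (SD, n = 3), with no overlap and a log2 fold change of -0.83 (unadjusted p = 0.00648 and adjusted p = 0.28 from limma). Prss34 and Fcer1a had log2 fold changes of -0.62 and -0.28, and Ms4a2 and Cpa3 had 0.11 and 0.23, and of these 4 genes Cpa3 alone had groups that did not overlap. The part of these cells in the values of Fcer1g was not tested. The largest differences upward were those of the ADP receptors P2ry12 (35.4 ± 19.2, SD, n = 4, and 67.4 ± 37.6, SD, n = 3, log2 fold change 0.92, adjusted p = 0.587 from limma) and P2ry1 (305 ± 31.0 and 443 ± 25.8, 0.54, adjusted p = 0.114). Next to Fcer1g, the collagen receptor chain Itga2 had the lowest log2 fold change (-0.13, adjusted p = 0.899). Clec1b, the untested receptor, had 4.05 ± 3.39 (SD, n = 4) and 12.3 ± 3.42 (SD, n = 3). Groups did not overlap for 4 of 14 receptors, against 10% of all genes.

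Of the 13 genes of granule cargo and granule formation, all were tested, 1 was differentially expressed and higher in the KO-labelled libraries (0.258% of all genes called, 0.123% higher), 8 were above 0 (50.6% of all genes), and the median was 0.03. The groups did not overlap for 3 of the 13 (10% of all genes), and 3 had an unadjusted p under 0.05 (9.73% of all genes). This gene was Mmrn1, multimerin 1, which binds factor V in platelet granules, with normalized counts of 2840, 3188, 2445 and 2761 across wild-type replicates 1 to 4, and 4137, 4529 and 4043 across KO-labelled replicates 1 to 3. The 3 latter lay above all wild-type libraries, with a log2 fold change of 0.60 with SE 0.084 (adjusted p = 0.0230 from limma), a fold change of 1.51. Without wild-type replicate 3 the log2 fold change was 0.53, below the 1.5-fold minimum, and without any other library but wild-type replicate 2 the adjusted p was 0.0683 to 0.108. Pros1, protein S, had a log2 fold change of 0.55 (adjusted p = 0.200), Thbs1, thrombospondin 1, one of -0.68 (adjusted p = 0.641) and F5, factor V, one of -0.09 (adjusted p = 0.936).

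The 15 transcription factors of the lineage were all tested, and 0 were differentially expressed (0.258% of all genes). An unadjusted p under 0.05 was found for 1 (9.73% of all genes) and a log2 fold change above 0 for 6 (50.6% of all genes). Their median was 0.00, and the groups did not overlap for 1, Tal1 (10% of all genes). Tal1 had the highest log2 fold change (0.17, adjusted p = 0.459 from limma), with 5098 ± 423 (SD, n = 4) and 5718 ± 269 (SD, n = 3), followed by Mafk (0.04), and Gfi1b (-0.24) and Lmo2 (-0.14) had the lowest. Of 14 genes of the platelet cytoskeleton and signaling, 13 were tested, and 0 were differentially expressed (0.258% of all genes). In this list 0 had an unadjusted p under 0.05 (9.73% of all genes) and 5 were above 0 (50.6% of all genes). The median was -0.01, and the groups did not overlap for 0 (10% of all genes). Tpm4 (0.22) and Tubb1 (0.10) were at the upper end and Rasgrp2 (-0.10) and Myh9 (-0.07) at the lower end. Tubb1, the beta tubulin of megakaryocytes and platelets, was at 13.9 ± 5.49 (SD, n = 4) and 14.6 ± 4.73 (SD, n = 3), and Myl9, a myosin light chain abundant in megakaryocytes and chosen after its values had been seen, had no read pair in any library. edgeR (0.246% of all genes called) and DESeq2 (0.873% of its 18903 genes) called 0 genes of the transcription factor list and 0 of the cytoskeleton list.

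Among the 15 genes of platelet-biased and aged HSCs, all were tested and 0 were differentially expressed with limma (0.258% of all genes). At an unadjusted p under 0.05 there were 9 of 15 (9.73% of all genes), 13 were above 0 (50.6% of all genes), and the groups did not overlap for 7 (10% of all genes), 6 of them higher in the KO-labelled libraries. The median log2 fold change was 0.41. Nupr1, a stress-induced nuclear protein gene, had the highest value (158 ± 47.0, SD, n = 4, and 341 ± 57.9, SD, n = 3, log2 fold change 1.14, adjusted p = 0.132 from limma). DESeq2 (adjusted p = 0.000111) and limma with robust variance estimates (adjusted p = 0.0472) called it, whereas edgeR called 0 genes of the list (0.246% of all genes). Sbspon followed (0.93, adjusted p = 0.444 from limma). The 2 lowest were Mecom, a transcription factor of HSCs, at 2819 ± 148 (SD, n = 4) and 2378 ± 225 (SD, n = 3), with no overlap and a log2 fold change of -0.25 (adjusted p = 0.282 from limma), and Ehd3 (-0.02, adjusted p = 0.978). The list was written with results of these libraries known, and it includes Itgb3, which is also in the receptor list. It also holds Procr, Hoxb5, Fgd5 and Mecom, which are genes of HSCs in general. Its counts and its median are therefore not particular to platelet-biased or aged HSCs.

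**Figure D4:**
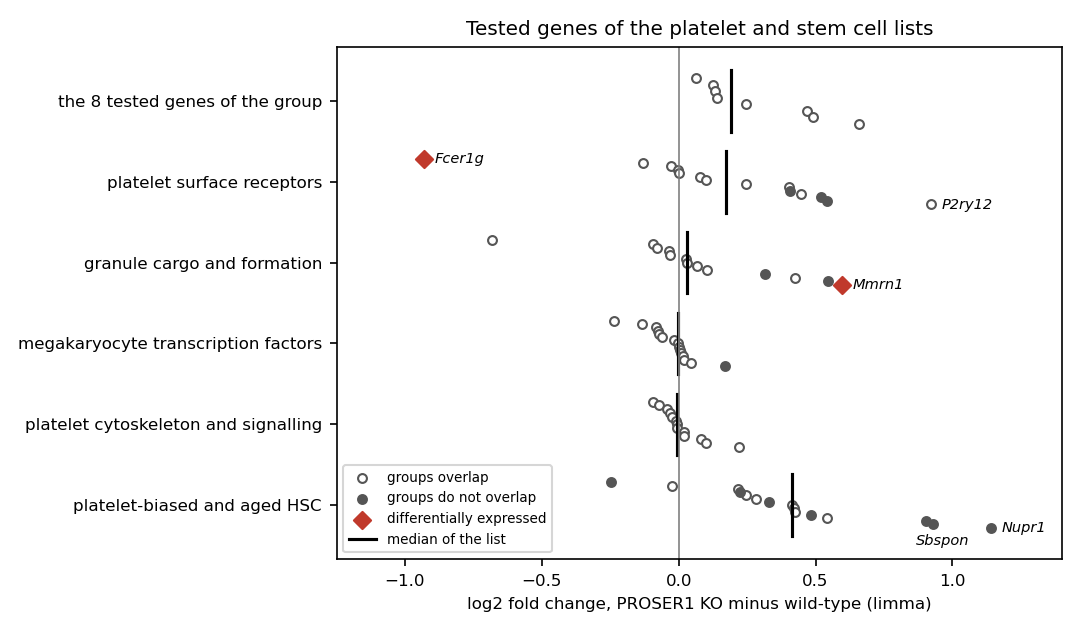
Log2 fold change (x axis, KO-labelled libraries minus wild-type, limma) of each tested gene of the 8-gene group and of the 5 further lists (rows). Open circles are genes whose groups overlap, filled circles genes whose groups do not, red diamonds differentially expressed genes, and black bars list medians. The medians are 0.19, 0.17, 0.03, 0.00, -0.01 and 0.41 from top to bottom, and the only diamonds are Fcer1g (-0.93) and Mmrn1 (0.60).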

How the data were processed

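RNA of sorted LSK cells from transplanted mice was measured in 4 wild-type libraries and 3 labelled PROSER1 KO, grouped by their labels. Trimmomatic, STAR (genome mm10), featureCounts and DESeq2 are the tools that the authors name. The values they deposited are read pairs of each gene divided by 1 DESeq2 size factor per library, a normalized signal to which no filter on low values was applied. Whole read pairs were recovered from the step of each library (100% of values whole within 0.01 read pairs). The annotation release is named differently in the methods and in the file header. Replicates are called biological in the labels, and p-values set the difference between the groups against the spread between these samples. The number of marrow donors is not given in the sources used here, so that libraries of a group may share a donor.

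Differences were tested by limma (version 3.58.1, R 4.3.3) for the 16251 genes whose mean was at least 10, using log2(normalized count + 1) and eBayes with trend. On this scale the fold changes of low genes are understated. Differential expression required a Benjamini-Hochberg adjusted p under 0.05 over all genes tested and a fold change above 1.5. edgeR 4.0.16 (quasi-likelihood) and DESeq2 1.42.0 on recovered read pairs, pseudocounts of 0.1 and 10, other filters, normalizations and variance estimates, the replicate number as a block and each library left out were alternatives. Single genes were also compared by an exact permutation test with Python 3.11.15. limma, edgeR and DESeq2 were tested on simulated counts with genes of known change. The 685 rows with no symbol (up to 0.135% of a library) were kept.

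The 9 genes and the other lists were chosen with earlier results of these data known. Named genes were Proser1, the 9 genes, the differentially expressed genes and the 2 largest rises and 2 largest falls of each other platelet or HSC list, the most abundant gene of each other cell type list, and the 5 genes most correlated with Vwf and with the mean of the 8 tested genes. Positions and exon lengths come from GENCODE M21 (GRCm38) and promoters from RefSeq (GRCm38.p6). A gene of the receptor list is not reported by name here.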

Additional observations from a re-analysis of the deposited data

Results flagged for a closer look

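In groups of 4 libraries, the gap between the highest or lowest library and its nearest neighbor was set against the range of the group and compared with Dixon's 95% critical value. Of 48 groups compared, 2 were above it, where chance gives about 1 in 20. Itga2 in wild-type had a ratio of 0.868, and wild-type replicate 3 was at 340.2 against 180 to 201 in the others. The summed stromal list in wild-type had a ratio of 0.899, with 3177 in wild-type replicate 3 and 2077 to 2189 in the others. Most of this sum was Pdgfrb, at 2890 in wild-type replicate 3 and 1855 to 2114 in the others. Of the other tested stromal genes, Cxcl12 was also highest among wild-type in replicate 3, whereas Lepr and Col1a1 were highest in replicate 4. Vwf, Gp1bb and Clu had their lowest values in wild-type replicate 3. The part of stromal cells in these values was not tested.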

How the results depend on the processing

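None of the 8 tested genes was differentially expressed under any of the alternatives, and the lowest adjusted p was 0.116, for Itga2b with DESeq2. These were 151 results of a gene under an alternative, and those without a fold change minimum used the main fit again. Vwf kept a log2 fold change of 0.35 to 0.85, Itga2b 0.17 to 0.34, Pf4 0.18 to 0.83, Gp1bb 0.18 to 0.81 and Selp 0.07 to 0.17. The direction turned for Ppbp with the replicate number as a block (-0.0071) and when libraries were left out (-0.10 to 0.58), for Gp9 when libraries were left out (-0.11 to 0.20) and for Clu (-0.37 to 0.40). Non-overlapping groups numbered 0 to 3 of the 8 genes when libraries were left out (13.4% to 19.4% of all genes tested), and 5 to 8 were above 0 (49.8% to 50.9%), alternatives that were chosen after seeing the data. Of the other genes named, these turned when libraries were left out: Itga2 (-0.23 to 0.075), F5 (-0.25 to 0.14), Tubb1 (-0.13 to 0.31), Ehd3 (-0.13 to 0.078, and 0.078 with the replicate block) and Gp1ba (-0.10 to 0.089). The correlation of Vwf with Clu was -0.25 without 2 libraries and kept its sign in the other 8 alternatives. Over all genes, 42 were differentially expressed, 17 without the mean-variance trend, 80 with robust variance estimates and 165 with DESeq2 (of 18903 genes). When 1 library was left out there were 23 to 42, lowest without KO-labelled replicate 2. The receptor list held 1, or 0 without the trend and 0 to 1 when libraries were left out. The granule list held 1, or 0 without the trend and 0 to 1 when libraries were left out. The list of platelet-biased and aged HSCs held 0, or 1 (Nupr1) with robust estimates and 1 with DESeq2. Fcer1g and Mmrn1 lost their calls in 6 and 7 of 19 alternatives, with log2 fold changes of -0.93 and 0.60 and adjusted p of 0.118 and 0.157 without the trend. The cause of these differences was not tested. Libraries with the same replicate number did not deviate together (r 0.02, 0.06 and -0.11, against -0.13 to 0.14 for libraries with different numbers). So few pairs cannot exclude that the numbers pair the samples. The block gave 35 calls over all genes and 0 among the 8. Depth limits Gp6. For the 8 tested genes the spread between libraries of a group was larger than the counting error.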
